A study of Homo sapiens with 8 samples.

Results

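The p63 regions described here were listed in SCC13 cells and had no overlapping region in CAL27 cells. They were chosen by their measured presence in the deposited lists: a region of the SCC13 list was kept where it overlapped no region of the CAL27 list by 1 bp or more. Of 5886 SCC13 regions, 1438 were kept, or 24.4% (95% exact binomial interval 23.3 to 25.5), which is 9.42% of the 15267 regions listed in either line. They are called SCC13-only regions below and are set beside the 9381 CAL27-only regions and the 4448 regions shared by both lists.

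SCC13 and CAL27 are established human squamous cell carcinoma lines, the first derived from skin and the second from tongue, and both were wild type and untreated per the labels. Chromatin of each line was immunoprecipitated with a p63 antibody, with 2 replicates per line, and 2 further samples per line titled none were recorded. SCC13 cells were grown in serum-free keratinocyte medium with bovine pituitary extract, EGF and calcium, and CAL27 cells in DMEM F:12 with serum, so line and medium cannot be told apart. Each line had 1 deposited list for both replicates, with a chromosome, a start and an end (hg19) and no score or depth, so no spread between replicates could be computed. Absence from a list does not show that p63 did not bind there. All intervals here cover counting error only.

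The transcription factor p63, encoded by TP63, belongs to the p53 family and binds DNA as a tetramer at paired half-sites like those of p53. In stratified epithelia it is the lineage factor of basal keratinocytes, where the form lacking the full N-terminal activation domain predominates. It occupies enhancers of genes for keratins, adhesion and differentiation, many of them far from the promoters they act on, and it is often highly expressed in squamous carcinomas. The title of the series names FOXK1, a forkhead factor, as its cofactor in these tumours. No genome or gene annotation of hg19 was used, so regions are given by position and cytogenetic band, and no region was assigned to a gene. Genes named with a band were picked by textbook location from many others there. No link between a region and such a gene was tested.

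SCC13-only regions were short. Their median width was 590 bp, with quartiles of 455 and 808 bp, against 723 bp (571 and 951) for CAL27-only regions and 934 bp (746 and 1194) for shared regions. They ranged between 217 and 2255 bp and together covered 0.940 Mb, or 17.2% of the length covered by the SCC13 list. Regions under 500 bp made up 34.9% of SCC13-only regions, 13.7% of CAL27-only regions and 1.53% of shared regions. Regions over 1000 bp made up 10.4%, 21.1% and 42.4% of the same classes, in that order. Width comes out of the same region calling that put a region in a list, so these values describe the regions and were not tested. Shared regions had the same coordinates in both lists, as described below, which bears on the comparison with their widths.

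**Figure D1:**
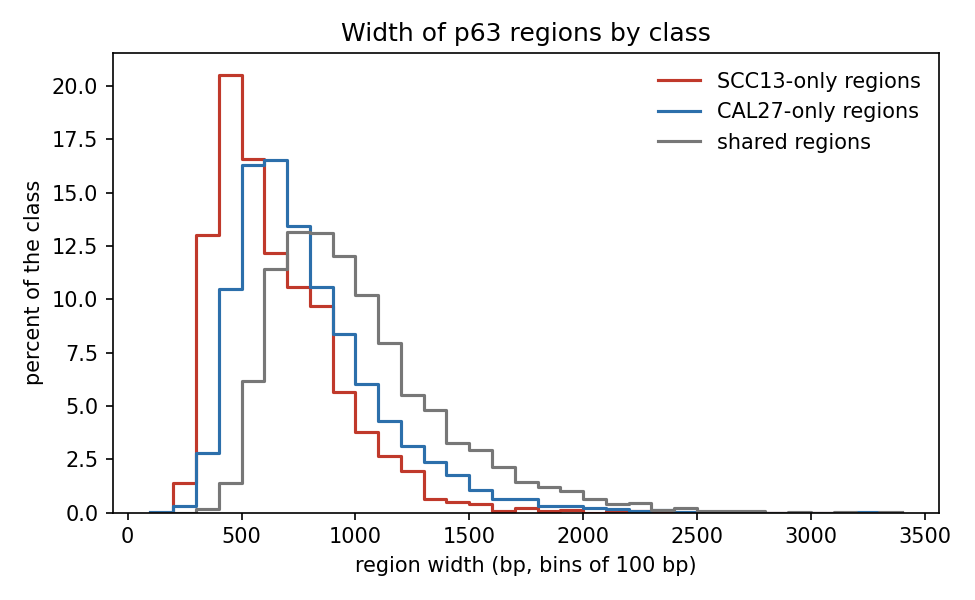
Width of p63 regions in bins of 100 bp, as the percent of SCC13-only (red), CAL27-only (blue) and shared (grey) regions in each bin. The SCC13-only curve peaks at narrower widths than the others, with a median of 590 bp against 723 bp for CAL27-only and 934 bp for shared regions.

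The short width held along the genome. The median width of SCC13-only regions lay between 504 bp on chromosome 11 and 709 bp on chromosome 20. It was below that of shared regions on all 23 chromosomes examined and below that of CAL27-only regions on 22 of the 23. The exception was X, where SCC13-only regions had a median of 596 bp and CAL27-only regions 572 bp. Width changed little with the kind of band, with medians of 585 bp in pale G-negative bands and 580 bp in the darkest bands (gpos100). It also changed little with isolation: the median was 605 bp for the 180 SCC13-only regions within 10 kb of a CAL27 region and 584 bp for the 633 that lay 100 kb or more away.

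The widest SCC13-only regions included a pair on the short arm of chromosome 11. The widest of all spanned 2255 bp on chromosome 11 at 34877498 to 34879752, and the second 2196 bp at 34686135 to 34688330. Both lie in band 11p13. Among many other genes, this band holds CD44, an adhesion receptor, and EHF and ELF5, epithelial factors of the ETS family, and no link to them was tested. The nearest CAL27 region lay 45.5 kb from the first and 10.1 kb from the second. The third, of 1980 bp, lay on chromosome 3 at 157283728 to 157285707 in band 3q25.32, with the nearest CAL27 region 128 kb away. The fourth spanned 1916 bp on chromosome 21 at 35318108 to 35320023 in band 21q22.11, and the fifth 1888 bp on chromosome 10 at 62247349 to 62249236 in band 10q21.2, 203 kb from any CAL27 region. The other 5 of the 10 widest were 1587 to 1776 bp wide, in bands 21q21.3, 14q32.2, 3q25.33, 12q21.32 and 7p14.3. None of the 10 lay in a gpos100 or centromeric band, classes that held only 14.0% and 0.904% of all SCC13-only regions. The 5 narrowest were 217 to 255 bp wide, and the narrowest lay on chromosome 3 at 4623832 to 4624048 in band 3p26.1.

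At the edge of the overlap rule, overlaps were complete or absent. Each of the 4448 shared regions was listed with the same coordinates in SCC13 and CAL27, so the smallest overlap was the whole width of the narrowest shared region, 349 bp. Whether the lists were drawn from a merged set of regions was not tested, and such a step would bear on the widths of shared regions and on the overlaps and gaps given here. The smallest gap between an SCC13-only region and a CAL27 region was 171 bp, and 11 SCC13-only regions had a gap under 500 bp. The closest, in band 6q23.3 on chromosome 6, ran over 1433 bp at 138425677 to 138427109, beside a CAL27-only region that ended at 138425505. The next 4 lay 291 to 386 bp from a CAL27 region, in bands 2p15, 20p13, 1p36.31 and 11p13. Of the 21 SCC13-only regions within 1 kb of a CAL27 region, the nearest one was CAL27-only for 11 and shared for 10.

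SCC13-only regions lay farther from the nearest CAL27 region than CAL27-only and shared regions lay from the nearest other one. The median gap was 77.9 kb, with quartiles of 26.2 and 215 kb. For comparison, the gap to the nearest other CAL27 region had a median of 36.9 kb for CAL27-only regions and 33.2 kb for shared regions. A CAL27 region lay within 10 kb of 12.5% of SCC13-only regions, against 22.4% of CAL27-only and 23.3% of shared regions. At 100 kb these shares were 56.0%, 75.4% and 77.7%, in the same order. A gap of over 1 Mb was found for 69 SCC13-only regions (4.80%), for 36 CAL27-only regions (0.384%) and for 16 shared regions (0.360%). In the other direction, CAL27-only regions lay at a median of 109 kb from the nearest SCC13 region, with 8.96% within 10 kb. A large gap to the list of the other line is thus not particular to SCC13-only regions. The SCC13 list is the shorter, with 5886 regions against 13829, which bears on both directions. These distances were not tested.

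**Figure D2:**
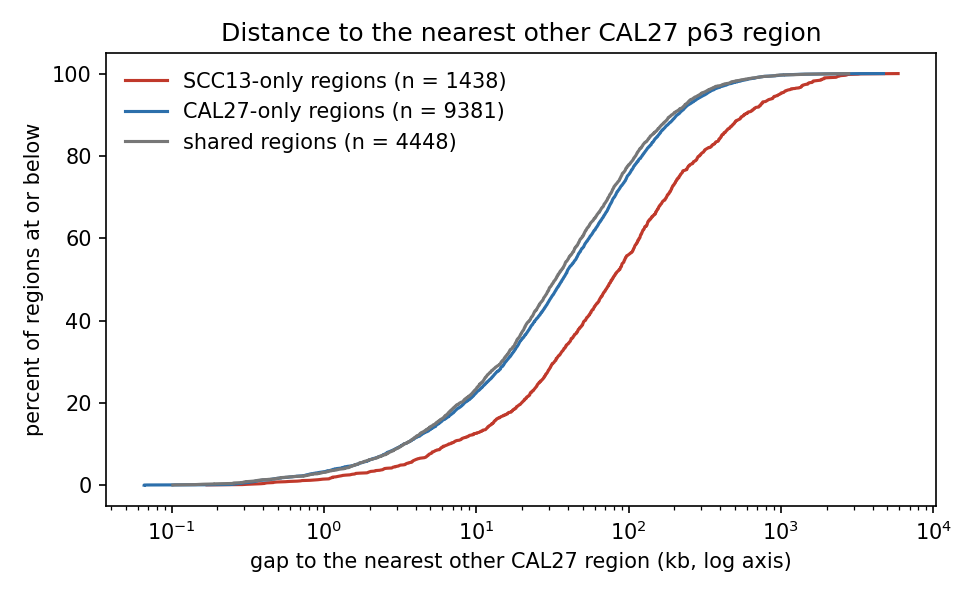
Cumulative percent of regions by the gap, in kb on a log axis, to the nearest other region of the CAL27 list, for SCC13-only (red), CAL27-only (blue) and shared (grey) regions. The SCC13-only curve lies to the right of the others, with a median of 77.9 kb against 36.9 kb for CAL27-only and 33.2 kb for shared regions.

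The wider spacing from the CAL27 list was found on each chromosome and in each of the 5 Giemsa band classes compared. CAL27-only and shared regions belong to that list, and SCC13-only regions were chosen for not overlapping it. The order of classes is therefore not independent of the rule and was not tested. Gaps of CAL27-only regions to the SCC13 list were not split in this way. On all 23 chromosomes the median gap was larger for SCC13-only than for CAL27-only and than for shared regions. The medians were nearest on chromosome 22, with 29.6 kb for SCC13-only, 22.7 kb for CAL27-only and 27.7 kb for shared regions. They stood far apart on X, with 390 kb for SCC13-only, 108 kb for CAL27-only and 66.4 kb for shared regions. In G-negative bands the medians were 58.5 kb for SCC13-only, 32.0 kb for CAL27-only and 29.5 kb for shared regions. In gpos100 bands they were 199 kb, 83.6 kb and 63.4 kb for the same classes.

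Distance to other SCC13 regions had the same order of classes. The nearest other SCC13 region lay at a median of 139 kb from SCC13-only regions, 109 kb from CAL27-only regions and 90.6 kb from shared regions. Of the 69 SCC13-only regions over 1 Mb from the CAL27 list, 29 lay in gpos100 bands and 17 in G-negative bands. They were spread over 17 chromosomes, with 13 on X and 7 on chromosome 16. The most isolated lay in the variable band 21p11.2, 1110 bp wide at 9851014 to 9852123 of chromosome 21, 5.88 Mb from the nearest CAL27 region. It was followed by 2 regions on X, of 534 bp at 85396588 to 85397121 (Xq21.2) and of 729 bp at 93655403 to 93656131 (Xq21.33), at 3.33 and 3.22 Mb.

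SCC13-only regions neighboured each other more often than their share of all listed regions, though most stood alone and few lay close. The nearest listed region of either line was itself SCC13-only for 272 of the 1438, or 18.9%. An SCC13-only region was the nearest one for 7.23% of CAL27-only and 8.88% of shared regions, and the class made up 9.42% of all listed regions. Without chromosomes 4, 8 and X the share was 19.3% (228 of 1183). Uninterrupted stretches of 2 or more SCC13-only regions, with no other listed region between them, took in 462 of them. The other 976 stood alone. Most stretches were short: 148 held 2 regions, 29 held 3, 11 held 4 and 6 held 5 or more.

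The longest stretch held 8 SCC13-only regions over 2785 kb on chromosome 7, at 51392753 to 54177483. It began in band 7p12.1, and only its last region, at 54177012 to 54177483, lay in 7p11.2. Its regions were 288 to 948 bp wide. A stretch of 6 lay on chromosome 8 at 32986856 to 36865116, in bands 8p12 and 8p11.23, with 3 regions of over 1000 bp. Another 6 spanned 13103 kb of X, at 83378398 to 96481419, in bands Xq21.1 to Xq21.33. Stretches of 5 were found on chromosome 11 at 78866961 to 79405822 (11q14.1), on chromosome 16 at 62479138 to 65803509 (16q21) and on chromosome 21 at 19537222 to 23724171 (21q21.1). That on 11q14.1 was the most compact of the 3, at 539 kb. The remaining stretches named by the rule held 4 each, in bands 4q21.1, 12q22, 14q32.33 and 20q12. The stretch in 14q32.33, the band of the immunoglobulin heavy chain locus, spanned 588 kb on chromosome 14 at 105774735 to 106362689.

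Tight groups were rare. Only 17 pairs, and no larger group, had midpoints within 12.5 kb of each other, and they held 34 regions, or 2.36% of the class. The closest pair lay on chromosome 4 at 99714893 to 99716157 in band 4q23, with regions of 501 and 517 bp. It was followed by pairs on chromosome 17 at 74575661 to 74578122 (17q25.1, 889 and 525 bp) and on chromosome 8 at 36431065 to 36433982 (8p12, 1029 and 486 bp). None of the 10 most compact pairs enclosed a CAL27-only or shared region.

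SCC13-only regions took a different share than CAL27-only regions on 6 of 23 chromosomes, larger on 3 and smaller on 3. The 6 are 26.1% of the chromosomes tested (Fisher's exact test, two-sided, Benjamini-Hochberg adjusted over the 23). Chromosome 8 carried the most SCC13-only regions after chromosome 1, 104 against 119. These were 7.23% of SCC13-only regions (95% interval 5.95 to 8.70), against 3.73% of CAL27-only regions (3.36 to 4.13), or 1.94 times the share (1.57 to 2.40; adjusted p = 1.27e-07, exact test). Chromosome 4 had 100, or 6.95% against 3.13% of CAL27-only regions, 2.22 times the share (1.78 to 2.76; adjusted p = 1.38e-09, exact test). On X there were 51, or 3.55% against 2.03%, which is 1.75 times the share (1.29 to 2.37; adjusted p = 0.00271, exact test).

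On the other side stood chromosomes 22, 9 and 2. Chromosome 22 held 13 SCC13-only and 210 CAL27-only regions, so that the SCC13-only share was 0.404 times the CAL27-only share (0.231 to 0.705; adjusted p = 0.00250, exact test). Chromosome 9 had 43 SCC13-only and 486 CAL27-only regions, or 0.577 times the share (0.425 to 0.784; adjusted p = 0.00134, exact test). Chromosome 2 had 91 SCC13-only and 842 CAL27-only regions, or 0.705 times the share (0.572 to 0.869; adjusted p = 0.00271, exact test). Set against shared regions in place of CAL27-only ones, chromosomes 9 and 2 no longer passed (exact test, adjusted p = 0.0946 and 0.146). Chromosome 2 also fell short among regions of at least the median SCC13-only width (exact test, adjusted p = 0.0674), where the ratio of X moved to 2.93. These tests take each region as an independent draw, and dependence between neighbours makes such p-values too small. They compare 2 lists and not replicated samples. The lists hold no copy number of either line. Whether it bears on the shares of chromosomes here, or of arms below, was not tested.

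**Figure D3:**
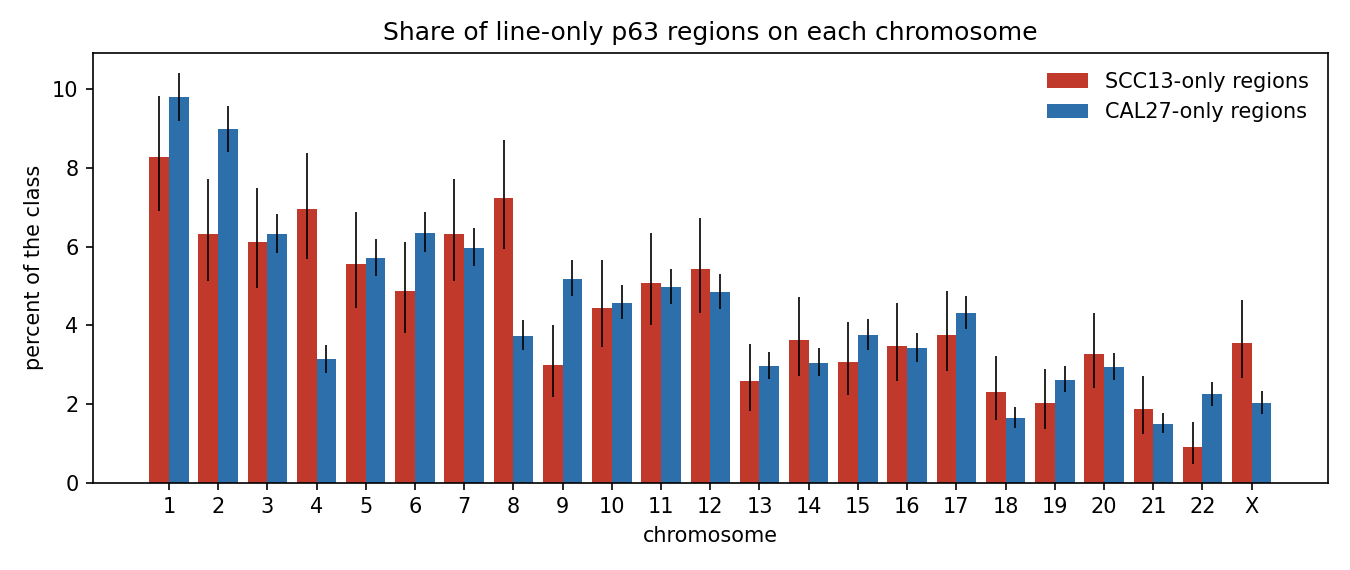
Percent of SCC13-only (red) and of CAL27-only (blue) p63 regions on each chromosome, with 95% exact binomial intervals as bars. SCC13-only regions take 7.23% on chromosome 8 and 6.95% on chromosome 4, against 3.73% and 3.13% of CAL27-only regions.

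As a share of the SCC13 list itself, SCC13-only regions varied about the overall 24.4%. They were 36.7% of SCC13 regions on X (95% interval 28.7 to 45.3), 33.3% on chromosome 4 (28.0 to 39.0) and 33.0% on chromosome 8 (27.8 to 38.5). The lowest values were 11.3% on chromosome 22 (6.16 to 18.6) and 17.9% on chromosome 19 (12.3 to 24.7). Per unit of length, SCC13-only regions were densest on chromosome 20, at 0.746 per Mb, and chromosome 8, at 0.711 per Mb, against 0.474 per Mb over all chromosomes. They were sparsest on chromosome 22, at 0.253 per Mb, a chromosome with 4.09 CAL27-only regions per Mb against 3.09 overall. Across the 23 chromosomes the density of SCC13-only regions had a Pearson r of 0.273 with that of CAL27-only regions and of 0.462 with that of shared regions. These are descriptions of points that share the same lists and gene-rich chromosomes.

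Divided by arm, the class differed from CAL27-only regions on 11 of 41 arms tested, or 26.8%, with a larger share on 7 and a smaller share on 4. The 7 arms 3p, 4p, 4q, 8p, 8q, 18q and Xq together held 321 SCC13-only regions, or 22.3%, against 10.4% of CAL27-only and 13.4% of shared regions. Arm 8p stood highest, with 37 SCC13-only regions, 51 CAL27-only regions and 42 shared regions, so that 46.8% of its SCC13 list had no counterpart in CAL27 (95% interval 35.5 to 58.4). Its SCC13-only share was 4.73 times the CAL27-only share (3.11 to 7.20; adjusted p = 8.99e-10, exact test). It was 9.83 times among regions of at least the median SCC13-only width and 2.72 times when set against shared regions (adjusted p = 6.18e-10 and 6.17e-04, exact test). Xq followed, with 45.8% of its SCC13 regions being SCC13-only (34.0 to 58.0), and 3p with 37.7% (29.8 to 46.1).

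The arms of chromosome 3 went in opposite directions. Arm 3p held 55 SCC13-only and 140 CAL27-only regions, and arm 3q, which carries TP63 and SOX2, held 33 and 453. The ratio of shares was 2.56 on 3p (1.89 to 3.48; adjusted p = 5.40e-07, exact test) and 0.475 on 3q (0.335 to 0.674; adjusted p = 4.16e-05, exact test). The other arms with smaller shares were 2q, 9q and 22q, with ratios of 0.585, 0.472 and 0.404. Only 7 arms passed among regions of at least the median SCC13-only width, where 2q, 3q, 4q and 8q fell short (exact test, adjusted p = 0.0599, 0.109, 0.0540 and 0.140). Against shared regions, 18q, 4p and 8q fell short (exact test, adjusted p = 0.194, 0.135 and 0.395).

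**Figure D4:**
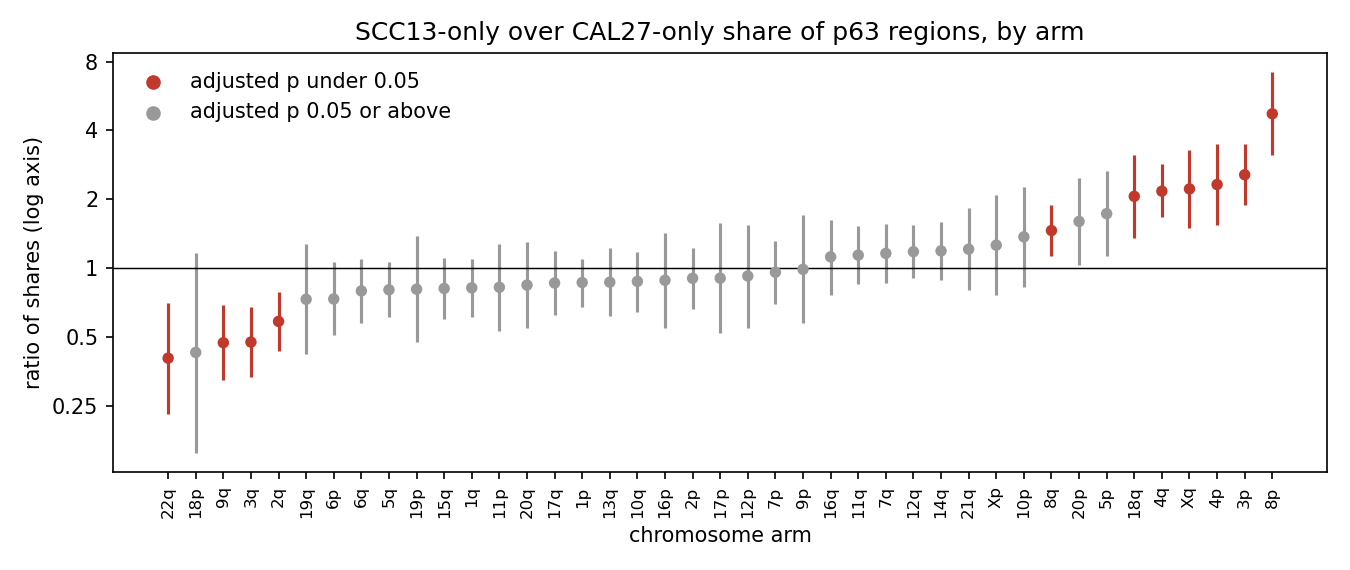
Ratio of the SCC13-only share to the CAL27-only share of p63 regions for 41 chromosome arms, on a log axis, in rising order, with 95% intervals as lines. Red arms passed Fisher's exact test after adjustment: 7 lie above an equal share, up to 4.73 on 8p, and 4 below it, down to 0.404 on 22q.

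The arms with larger shares differed in how their SCC13-only regions were spread. The 55 on 3p fell in 22 of 27 bands, with at most 6 in a band, and the 69 on 4q in 28 of 35, also with at most 6. The 37 on 8p fell in 9 of 12 bands, and 21 of them lay in 2 bands, with 12 in 8p21.3. Of the 29 on 18q, 8 lay in 18q12.1, and the 33 on Xq fell in 13 of 24 bands. Their median width was 619 bp on 8p, 582 bp on 3p and 515 bp on 4q. The median gap to the nearest CAL27 region was 201 kb on 8p, 88.1 kb on 3p, 138 kb on 4q and 420 kb on Xq.

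SCC13-only regions made up more of the SCC13 list in the darkest Giemsa bands than in pale ones. In this staining pattern pale bands are rich in genes and the darkest poor in them. SCC13-only regions were 22.2% of the SCC13 list in G-negative bands (95% interval 20.7 to 23.6) and 21.4% in the palest positive class, gpos25 (18.0 to 25.0). They were 23.1% in gpos50 (20.1 to 26.2), 28.7% in gpos75 (25.3 to 32.4) and 36.5% in gpos100 (32.4 to 40.6). In centromeric bands they were 13 of 27 SCC13 regions, or 48.1% (28.7 to 68.1). Set against shared regions, SCC13-only regions had 1.78 times the share in gpos100 bands (adjusted p = 2.11e-10, exact test) and 0.880 times the share in G-negative bands (adjusted p = 1.54e-05, exact test). Compared with CAL27-only regions, 4 of 7 band classes differed, or 57.1%, though classes add up to a whole and their tests are not separate.

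The clearest differences were at both ends of the scale. G-negative bands held 51.1% of SCC13-only regions against 56.8% of CAL27-only regions (ratio 0.901, 0.854 to 0.950; Fisher's exact test, adjusted p = 2.26e-04). The gpos100 bands held 202 SCC13-only regions, 14.0% against 8.95% (ratio 1.57, 1.36 to 1.81; exact test, adjusted p = 4.94e-08), while making up 16.4% of the banded length. The gpos75 class (ratio 1.20, adjusted p = 0.0379) and the centromeric class (ratio 2.17, adjusted p = 0.0379) passed the exact test by little. Both fell short with neighbours within 12.5 kb counted once (exact test, adjusted p = 0.0617 and 0.0923) and among regions of at least the median SCC13-only width (0.0516 each), and gpos75 also without chromosomes 4, 8 and X (exact test, adjusted p = 0.0651).

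The excess in the darkest bands was found on most but not all chromosomes. Of the 18 chromosomes that have a gpos100 band, 14 had a larger percent of SCC13-only than of CAL27-only regions in it and 4 a smaller one. Chromosome 6 had 31.4% of its SCC13-only regions there against 9.73% of its CAL27-only regions, and chromosome 13 had 32.4% against 14.0%. Chromosomes 3, 4, 8 and 12 went the other way, with 4.55% against 6.24% on chromosome 3, 13% against 13.9% on chromosome 4, 9.62% against 10.9% on chromosome 8 and 11.5% against 18.0% on chromosome 12. Chromosomes 4 and 8 were thus high in SCC13-only regions without an excess in their darkest bands.

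**Figure D5:**
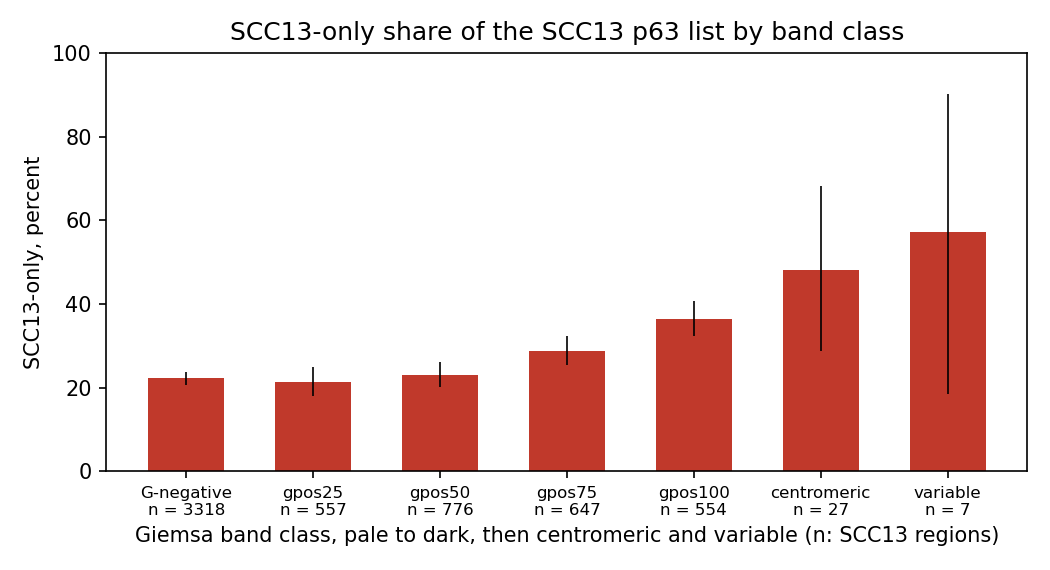
SCC13-only regions as the percent of all SCC13 p63 regions in each Giemsa band class, from pale (G-negative) to darkest (gpos100), then centromeric and variable bands, with 95% exact binomial intervals. The share is 22.2% in G-negative bands and 36.5% in gpos100 bands.

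SCC13-only regions were thinly spread over the genome, and few places held many. Of 593 windows of 5 Mb that held a listed region, 509 held an SCC13-only region, with a median of 2 and at most 10 in a window. The 10 windows with the most held 89, or 6.19% of the class. The maximum of 10 was reached in 4 windows. That on chromosome 7 at 50000001 to 55000000 held 10 SCC13-only, 11 CAL27-only and 4 shared regions, and includes the stretch of 8 described above. That on chromosome 8 at 20000001 to 25000000, in bands 8p21.2 and 8p21.3, held 10 SCC13-only, 11 CAL27-only and 8 shared regions. The other 2, both on chromosome 1, in 1p35.1 to 1p35.2 and in 1q32.1, held 33 and 36 CAL27-only regions beside their 10.

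SCC13-only regions outnumbered CAL27-only regions in 28 windows, of which 19 held 3 or more SCC13-only regions. The window with the most was on chromosome 18 at 25000001 to 30000000, in band 18q12.1, with 8 SCC13-only, 6 CAL27-only and 5 shared regions. Band 18q12.1 as a whole held 8 SCC13-only, 12 CAL27-only and 5 shared regions, so SCC13-only regions did not outnumber CAL27-only ones there. This band carries the genes of the desmosomal cadherins, the desmogleins and desmocollins that hold keratinocytes together, and CDH2, which encodes N-cadherin. The next window was on chromosome 8 at 35000001 to 40000000, in bands 8p12 to 8p11.22, with 6 SCC13-only, 4 CAL27-only and 1 shared region. In windows of 10 Mb, SCC13-only regions outnumbered CAL27-only regions in 7.

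By single band, 8p21.3 held the most SCC13-only regions, 12, beside 7 CAL27-only and 7 shared regions. Bands 8q24.3, 11q23.3 and 1q32.1 followed with 10 each, and 8p12, the band of NRG1, which encodes the ERBB3 and ERBB4 ligand neuregulin, with 9. SCC13-only regions were 80% of the SCC13 list in 7p12.1 (8 of 10), 69.2% in 8p12, 66.7% in 11q14.1 and 63.2% in 8p21.3. In 8q24.3 and 1q32.1 they were 27.0% and 21.3%.

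Bands that carry known keratinocyte, partner, p53 target and mesenchymal genes were examined next. A total of 28 genes of 5 lists lie in 25 bands by their textbook location, and these bands held 69 SCC13-only, 527 CAL27-only and 319 shared regions. SCC13-only regions were thus 17.8% of the SCC13 list there, against 24.4% over the genome, and 23 of the 25 bands held at least 1. Over the genome 595 of the 786 bands with a listed region did, or 75.7%. Each of the 5 lists as planned named further genes that were not placed in a band, such as PLEC, KRT1, PERP, TEAD1 and TWIST1. The values for each list therefore cover only part of it. A band spans several Mb and holds many other genes, and these values were not tested.

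For basal keratinocyte and adhesion genes, 8 bands held 26 SCC13-only, 218 CAL27-only and 118 shared regions, so that 18.1% of the SCC13 list was SCC13-only. Band 3q28, which carries TP63 itself, held 2 SCC13-only, 21 CAL27-only and 13 shared regions. Band 12q13.13, with the type II keratin genes such as KRT5, held 6, 19 and 13 of the same classes, and 17q21.2, with the type I keratin genes such as KRT14, held 2, 27 and 18. For epidermal differentiation genes, 4 bands held 11 SCC13-only, 79 CAL27-only and 74 shared regions, or 12.9%. In 1q21.3, the band of the cornified envelope genes FLG, LOR and IVL, 3 were SCC13-only, 23 CAL27-only and 33 shared.

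The bands of partner factors held 11 SCC13-only, 124 CAL27-only and 65 shared regions, so that 14.5% of the SCC13 list was SCC13-only. Band 7p22.1, which carries FOXK1, held 1 SCC13-only, 23 CAL27-only and 10 shared regions, and 17q25.3, which carries its paralogue FOXK2, held 6, 47 and 26. No SCC13-only region lay in 3q26.33, the band of the squamous lineage factor SOX2, or in 21q22.12, the band of RUNX1, beside 6 shared regions in each. The bands of p53 family targets held 10 SCC13-only, 71 CAL27-only and 40 shared regions, or 20%, with 5, 24 and 4 in 12q15, the band of MDM2, and 1, 15 and 12 in 6p21.2, the band of the cell cycle inhibitor CDKN1A. The bands of mesenchymal genes held 15 SCC13-only, 67 CAL27-only and 46 shared regions, or 24.6%. Of the 15, 8 lay in 18q12.1, beside 12 CAL27-only and 5 shared regions. It is the band of CDH2 but also of the desmosomal cadherins of keratinocytes. The value of this list thus rests largely on a band that is not particular to mesenchymal genes. The bands of VIM, ZEB1 and SNAI2 held 2, 1 and 3 SCC13-only regions beside 8, 4 and 13 shared regions. Band 2q35, with the fibronectin gene FN1, held 1 SCC13-only, 26 CAL27-only and 16 shared regions.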

How the data were processed

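Lists of p63 regions were used for 2 lines, SCC13 and CAL27. Per the labels' protocols, cells were crosslinked with 1% formaldehyde for 10 min and immunoprecipitated with 10 ug of antibody. Per the submitters' processing notes, Bowtie2, SAMtools 1.8, MACS2 and hg19 were used. Not given in the sources used here are their roles, the peak threshold, how replicates were combined and how the samples titled none were used. The deposited columns hold positions only, printed here counted from 1; sequencing depth is unknown.

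Chromosome shares were compared between SCC13-only and CAL27-only regions, which have no region in common, with two-sided Fisher's exact tests and Benjamini-Hochberg adjusted p under 0.05, and likewise arms and band classes; arms needed 20 line-only regions, so 21p, with 1, was left out. Bands came from the hg19 table of circlize 0.4.16 (R 4.3.3). Ratio intervals were computed on the log scale with a normal approximation, and those of percentages are exact (Clopper-Pearson, 95%). The functions were tested on simulated lists. Regions were named by rank of width, gap, stretch, pair, window and band, ties going to the shorter span, and windows with equal counts to that with fewer CAL27-only regions. The rule, lists and comparisons were chosen with earlier results of these data known; gene bands, widths and gaps within chromosomes were added last. Motifs and nearest genes were not analysed here, since no hg19 genome or annotation was used. Calculations ran in Python 3.11.15 (scipy 1.17.1, numpy 2.4.6, pandas 2.3.3), figures in matplotlib 3.10.9.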

Additional observations from a re-analysis of the deposited data

How the results depend on the processing

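The number of SCC13-only regions stayed at 1438 where at least 50% of both regions had to overlap. The identical coordinates of all shared regions dictated this, so it does not probe the rule. The number was 1427 where a gap of up to 500 bp also counted as shared. It was 1328 with a gap of up to 5000 bp, as a looser rule dictates. The median width was 589 to 599 bp and the median gap 78.8 kb under their alternatives. Of 67 values recomputed for the 21 chromosomes, arms and band classes that passed, 52 also passed, 15 fell short and 0 changed direction. Among regions of at least the median SCC13-only width, 7 arms and 2 band classes passed in place of 11 and 4, with fewer regions tested. With neighbours counted once, 2 band classes passed. Pairs and groups numbered 5 at 5000 bp and 30 at 25000 bp against 17, and windows with more SCC13-only than CAL27-only regions numbered 7 at 10 Mb against 28, as the joining distance and window size dictate. Without chromosomes 4, 8 and X, an alternative added after the data had been seen like the 10 Mb windows, the gpos100 ratio was 1.65 (Fisher's exact test, adjusted p = 1.99e-08) and 3 band classes passed.

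No paired analysis was possible because each line has 1 list for both replicates, which also kept any replicate from being left out. Sequence features were not run.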
